A study of Homo sapiens with 6 samples.

Results

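The genes described here are 10 genes of bone morphogenetic protein (BMP) signalling, chosen by symbol from the 58174 genes of the deposited tables: the ligands BMP2, BMP4 and BMP6, the receptors BMPR1A and BMPR2, the inhibitor SMAD6, and the target genes ID1, ID2, ID3 and ID4. All 10 symbols were found. They were measured by RNA-seq of polyA RNA in T24, an established human bladder cancer cell line. The 3 shRNA-NC samples carried a scrambled control shRNA and the 3 shRNA-UBC9 samples carried an shRNA against UBC9, the conjugating enzyme of SUMO modification. Both were introduced by lentivirus with puromycin selection, and a single UBC9 hairpin is described, so a response to this hairpin and a response to the loss of UBC9 cannot be told apart. The labels do not say whether the 3 samples of a group came from separate cultures, so the p-values measure only the spread between these samples.

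BMP ligands are secreted dimers that bring type I receptors such as BMPR1A together with type II receptors such as BMPR2. The type I receptor then phosphorylates SMAD1, SMAD5 and SMAD9, which enter the nucleus with SMAD4 and induce ID genes and, as a feedback brake, SMAD6. ID proteins are helix-loop-helix proteins without a DNA-binding region that hold E proteins such as TCF3, TCF4 and TCF12 away from DNA. In the bladder, BMP signals are known for their part in the exchange between urothelium and stroma.

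RPKM is the read count scaled for gene length (per kilobase) and for the mapped reads of the sample. The low RPKM values rise in steps worth 1 read, from which 28219032 to 36058872 mapped reads per sample were read back, and the reads behind a value are given where they are few. Of the epithelial and urothelial markers, KRT7, KRT8, KRT18, KRT19 and GATA3 were present and fell in shRNA-UBC9. EPCAM had 0.412 to 0.986 RPKM in shRNA-NC and 0.732 to 2.51 in shRNA-UBC9 and did not pass the test (log2 fold change 1.0, adjusted p = 0.0984, limma). The list summed to 943 to 1116 RPKM in shRNA-NC and 430.1 to 568 RPKM in shRNA-UBC9. The uroplakins UPK1B, UPK2 and UPK3A had at most 0.125 RPKM in any sample. The leukocyte list summed to at most 1.01 RPKM. Its most abundant member, CD14, had 0.260 to 0.657 RPKM in shRNA-NC and 0.692 to 0.752 in shRNA-UBC9. The groups did not overlap for CD14, which did not pass the test (log2 fold change 0.47, adjusted p = 0.25, limma). MS4A1 was at 0 in all 6 samples, with PTPRC at most 0.102 and CD3E at most 0.185 RPKM. The endothelial list summed to 2.64 to 3.26 RPKM in shRNA-NC and 0.338 to 1.07 in shRNA-UBC9, most of it CDH5, with PECAM1, VWF and KDR at most 0.0707 RPKM. The fibroblast list summed to 0.978 to 1.31 RPKM in shRNA-NC and 0.882 to 1.26 in shRNA-UBC9, with DCN and LUM at most 0.078 RPKM. Within that list COL1A1 rose (log2 fold change 0.95, adjusted p = 0.0276) and PDGFRB fell (log2 fold change -1.48, adjusted p = 0.00325). VIM, a mesenchymal marker, had 416 to 496 RPKM in shRNA-NC and 286 to 474 in shRNA-UBC9. The part of these changes in the results on BMP genes was not tested. In these bulk samples, fewer cells with a transcript and less of it per cell cannot be told apart.

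The ID genes are paralogs whose levels ranged from 0 to 177 RPKM in these cells, so the 250 bases upstream of their starts are shown side by side. The sequences are those of RefSeq on GRCh38.p14, read 5′ to 3′ along the gene's strand. Capitals mark the letters TATAAA and CCAAT or their reverse complements TTTATA and ATTGG, and the capital run in ID1 holds overlapping matches to TTTATA and TATAAA.
ID1 (chr20:31605039-31605288, plus strand): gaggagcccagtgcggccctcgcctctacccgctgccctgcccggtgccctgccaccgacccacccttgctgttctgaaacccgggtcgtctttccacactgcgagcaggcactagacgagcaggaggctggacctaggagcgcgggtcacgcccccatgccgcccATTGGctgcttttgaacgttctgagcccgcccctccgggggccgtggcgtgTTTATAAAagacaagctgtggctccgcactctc
ID3 (chr1:23559502-23559751, minus strand): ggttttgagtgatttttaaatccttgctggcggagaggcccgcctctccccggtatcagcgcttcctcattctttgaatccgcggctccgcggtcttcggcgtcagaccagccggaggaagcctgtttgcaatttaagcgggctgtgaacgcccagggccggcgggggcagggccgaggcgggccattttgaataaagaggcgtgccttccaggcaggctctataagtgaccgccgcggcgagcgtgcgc
ID2 (chr2:8681806-8682055, plus strand): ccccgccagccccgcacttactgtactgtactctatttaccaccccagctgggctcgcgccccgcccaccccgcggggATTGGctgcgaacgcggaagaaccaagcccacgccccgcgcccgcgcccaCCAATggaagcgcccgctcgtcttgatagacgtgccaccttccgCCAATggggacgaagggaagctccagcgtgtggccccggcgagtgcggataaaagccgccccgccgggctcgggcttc
ID4 (chr6:19837120-19837369, plus strand): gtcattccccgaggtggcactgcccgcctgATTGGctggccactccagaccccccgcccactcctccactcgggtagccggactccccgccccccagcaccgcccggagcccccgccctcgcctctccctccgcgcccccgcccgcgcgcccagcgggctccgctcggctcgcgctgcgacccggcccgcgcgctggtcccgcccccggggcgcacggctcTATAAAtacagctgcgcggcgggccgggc

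TATAAA on either strand was found upstream of ID1 and ID4, and among all 35116 promoter windows of the same length 10.7% held it. CCAAT on either strand was found upstream of ID1, ID2 and ID4, in ID2 at 3 places, and in 32.0% of all windows. ID3, the second most abundant ID gene, held neither. GGCGCC, a GC-rich word like those bound by BMP-activated SMADs, was in none of the 4 windows and in 16.4% of all windows. CAGAC or its reverse complement GTCTG, the SMAD-binding word, was upstream of ID3 and ID4 and in 38.0% of all windows. Only these 250 bases were searched, so a word absent from a window may still lie elsewhere near the gene. ID1 and ID4 both held TATAAA and CCAAT, and ID1 was the most abundant of the 10 genes while ID4 was not detected. Of the 10 genes, 9 matched the promoter table, all but BMP2. The GC content of the 4 windows was 62.0% for ID3, 66.0% for ID1, 69.2% for ID2 and 78.8% for ID4, against a median of 58.0% over all windows.

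The question put to each gene was whether its level differed between shRNA-UBC9 and shRNA-NC. The test, limma on log2(RPKM + 0.1), was run on genes that reached 0.5 RPKM in 3 or more samples, and a gene was said to rise or fall at an adjusted p-value below 0.05 over all 12428 genes tested. Of the 10 genes, 8 were tested. BMP2, BMP6 and ID1 rose, BMPR1A and SMAD6 fell, BMP4, BMPR2 and ID3 did not pass, and ID2 and ID4 were below the filter. Over all tested genes, 18.8% rose and 18.0% fell by the same rule. BMP2, BMP6 and SMAD6 reached 0.5 RPKM only in the group where they were higher, so a difference was built into their passing the filter and the count of genes that changed is not evidence about the list. With a |log2 fold change| > 1 required as well, the cutoff for a differentially expressed gene (DEG), BMP2 and BMP6 were up-regulated DEGs and SMAD6 was a down-regulated DEG, against 5.2% and 2.7% of all tested genes.

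**Figure D1:**
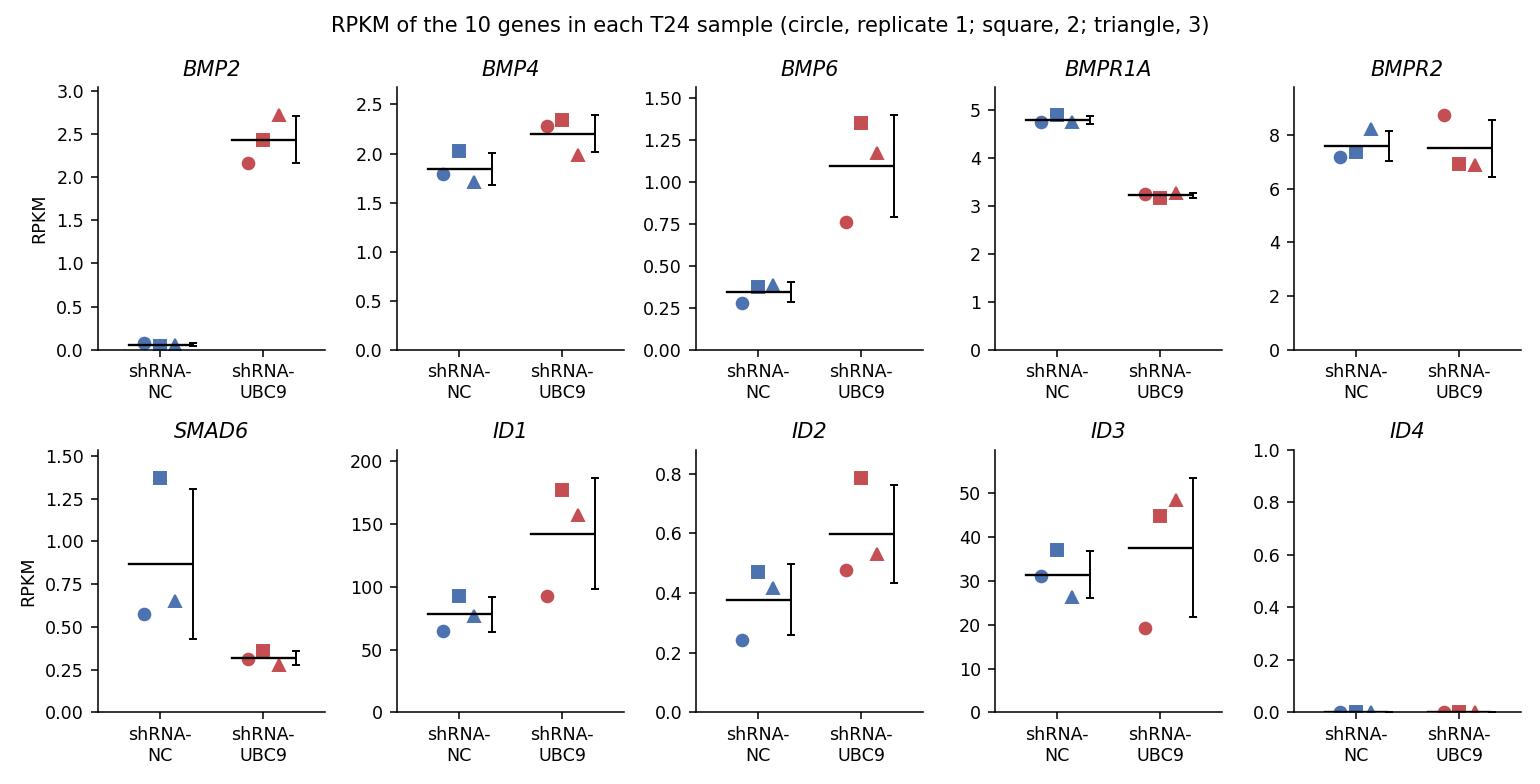
RPKM (vertical axes, from 0 and scaled per gene) of each of the 10 genes in the 3 shRNA-NC (blue) and 3 shRNA-UBC9 (red) samples, with the mean as a line and the SD as a bar. BMP2 sat at most at 0.0744 RPKM in shRNA-NC and at 2.16 to 2.72 RPKM in shRNA-UBC9, while BMPR1A was lower in shRNA-UBC9 with little spread and ID4 was at 0 in every sample.

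BMP2, a ligand that drives bone formation and is also induced in many epithelial cells, showed the largest change of the 8 tested genes (chr20:6767686-6780246). It had 0.0744, 0.0401 and 0.0574 RPKM in the shRNA-NC samples, which are 8, 5 and 7 reads. In the shRNA-UBC9 samples it had 2.16, 2.43 and 2.72 RPKM, or 281, 308 and 276 reads. BMP2 was thus close to undetected in the control cells and present in all 3 knockdown samples, with no overlap. The ratio of the group means was 42.5, and the log2 fold change was 4.01 (standard error 0.204, adjusted p = 1.4e-05, limma). That scale understates the change of a gene this low: the log2 difference was 5.21 when 0.01 was added in place of 0.1, it was 1.70 when 1 was added, and limma-voom on the reads gave 5.34 (adjusted p = 3.25e-05).

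BMP6, a ligand known for its part in iron control by the liver, rose from a higher floor (chr6:7726099-7881728). Its values were 0.277, 0.374 and 0.383 RPKM in shRNA-NC, from 23, 36 and 36 reads, and 0.758, 1.35 and 1.17 RPKM in shRNA-UBC9, from 76, 132 and 92 reads. The groups did not overlap, and replicate 1 was the lowest sample of both groups. The ratio of means was 3.17, and the log2 fold change was 1.40 (standard error 0.245, adjusted p = 0.00342, limma). The change shrank to 0.63 in log2 terms with a pseudocount of 1, and the gene still passed.

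BMP4, the ligand most closely related to BMP2, was the most abundant of the 3 ligands in the control cells and did not pass the test (chr14:53949736-53956891). It had 1.79, 2.02 and 1.71 RPKM in shRNA-NC and 2.28, 2.34 and 1.99 RPKM in shRNA-UBC9. The ranges overlapped, since shRNA-UBC9 replicate 3 lay below shRNA-NC replicate 2. It differed by 0.25 on the log2 scale, with a 95% interval of -0.03 to 0.52 (adjusted p = 0.148, limma).

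The make-up of the ligand transcripts differed between the groups. Summed over the 3 ligands, the level was 2.24 ± 0.168 RPKM over the 3 controls and 5.73 ± 0.475 RPKM over the 3 knockdown samples (mean ± SD). BMP4 made up 79.5% to 83.6% of this sum in the shRNA-NC samples and 33.8% to 43.8% in the shRNA-UBC9 samples. BMP2 made up 1.64% to 3.47% in shRNA-NC and 39.7% to 46.2% in shRNA-UBC9. The share of BMP6 was 12.9% to 17.8% in shRNA-NC and 14.6% to 22.0% in shRNA-UBC9, with overlapping ranges. These sums and shares are descriptions of chosen genes and were not tested.

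**Figure D2:**
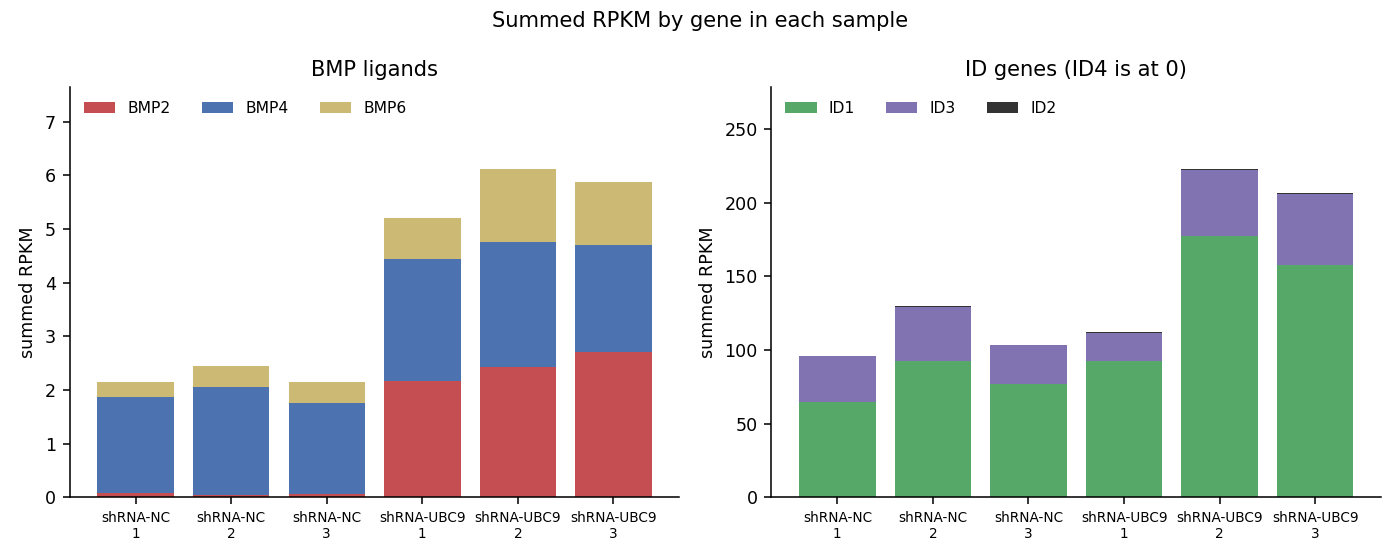
Summed RPKM (vertical axes, from 0) of the BMP ligands (left) and of the ID genes (right) in each of the 6 samples, with 1 colour per gene. The ligand sum was at most 2.44 RPKM in shRNA-NC and at least 5.20 RPKM in shRNA-UBC9, while the ID sum of shRNA-UBC9 replicate 1 (112 RPKM) lay below that of shRNA-NC replicate 2 (130.0 RPKM).

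BMPR1A, a type I receptor with kinase activity, fell (chr10:86755763-86932844). It had 4.74, 4.88 and 4.75 RPKM in shRNA-NC and 3.24, 3.15 and 3.26 RPKM in shRNA-UBC9. The SD was 0.0821 RPKM in shRNA-NC and 0.0561 RPKM in shRNA-UBC9, and every shRNA-UBC9 sample was below every shRNA-NC sample. The level in shRNA-NC was 1.49 times that in shRNA-UBC9, and the log2 fold change of -0.56 had the smallest standard error of the 8 tested genes, 0.085 (adjusted p = 0.00181, limma). The change was below the fold cutoff for a DEG.

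BMPR2, the type II receptor, did not pass the test (chr2:202376327-202567749). Its values were 7.19, 7.35 and 8.22 RPKM in shRNA-NC and 8.73, 6.91 and 6.87 RPKM in shRNA-UBC9. Replicate 1 of shRNA-UBC9 was the highest of all 6 samples and the other two shRNA-UBC9 samples were the lowest. Its log2 fold change was -0.02 with a 95% interval of -0.29 to 0.25 (adjusted p = 0.897, limma). Its sign turned to 0.04, 0.03 and 0.04 without shRNA-NC replicate 3, shRNA-UBC9 replicate 2 and shRNA-UBC9 replicate 3. The ratio of BMPR2 to BMPR1A on the RPKM scale was 1.51 to 1.73 in shRNA-NC and 2.11 to 2.69 in shRNA-UBC9, and this ratio was not tested.

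SMAD6, an inhibitory SMAD that blocks BMP receptors and their SMADs, fell (chr15:66702236-66782849). It had 0.576, 1.37 and 0.650 RPKM in shRNA-NC, from 75, 207 and 96 reads, and 0.311, 0.358 and 0.276 RPKM in shRNA-UBC9, from 49, 55 and 34 reads. The groups did not overlap, but shRNA-NC replicate 2 stood above the other control samples. The log2 fold change was -1.13 (standard error 0.313, adjusted p = 0.0234, limma), and the mean in shRNA-NC was 2.75 times that in shRNA-UBC9. It was -0.78 without shRNA-NC replicate 2 (adjusted p = 0.0469). The call was lost without shRNA-UBC9 replicate 3 (adjusted p = 0.0515) and when every detected gene was tested (adjusted p = 0.0572).

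ID1, the ID gene most often read as a sign of BMP signalling, was the most abundant of the 10 genes in both groups (chr20:31605289-31606510). It had 64.8, 92.4 and 77.1 RPKM in shRNA-NC and 92.4, 177 and 158 RPKM in shRNA-UBC9. The groups touched: replicate 1 of shRNA-UBC9 and replicate 2 of shRNA-NC differed by less than 0.1 RPKM, and the other shRNA-UBC9 samples were far above. The log2 fold change was 0.83 (standard error 0.236, adjusted p = 0.0265, limma), with a ratio of means of 1.82. The call was lost in 4 of the 6 fits that left out a sample, namely shRNA-NC replicate 1 (adjusted p = 0.094), shRNA-NC replicate 3 (0.0729), shRNA-UBC9 replicate 2 (0.0783) and shRNA-UBC9 replicate 3 (0.0643), and when every detected gene was tested (0.0744). The direction was the same in all of these fits, with log2 fold changes from 0.64 to 1.11 when a sample was left out.

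ID3 was the second most abundant gene and did not pass the test (chr1:23557926-23559501). It had 31.0, 37.1 and 26.2 RPKM in shRNA-NC and 19.3, 44.9 and 48.6 RPKM in shRNA-UBC9. The lowest and the highest of the 6 samples were both shRNA-UBC9. The log2 fold change was 0.16 with a 95% interval of -0.57 to 0.89 (adjusted p = 0.726, limma). Without shRNA-UBC9 replicate 1 it was 0.58 and passed the test (adjusted p = 0.0166), and without replicate 2 or 3 of that group it was -0.02 or -0.08, so 1 sample decides the call.

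ID2 was low and below the filter (chr2:8682056-8684461). It had 0.243, 0.471 and 0.415 RPKM in shRNA-NC, from 16, 36 and 31 reads, and 0.478, 0.785 and 0.530 RPKM in shRNA-UBC9, from 38, 61 and 33 reads. Every shRNA-UBC9 sample was above every shRNA-NC sample, though replicate 1 of shRNA-UBC9 only just so, and the exact two-sided permutation test gave p = 0.1, the smallest that 3 samples against 3 allow. Limma-voom on the reads, which tested 14440 genes with at least 60 reads over the 6 samples, gave ID2 a log2 fold change of 0.66 with a 95% interval of -0.11 to 1.44 (adjusted p = 0.164). By that test BMP2, BMP6, ID1, BMPR1A and SMAD6 passed in the directions given above and BMP4, BMPR2, ID2 and ID3 did not, with 17.8% of all genes rising and 16.3% falling.

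ID4 had no read in any of the 6 samples (chr6:19837370-19842197). A count of 0 allows up to 3 reads among the 28219032 to 36058872 mapped reads of a sample. These limits, like the read numbers above, cover counting error only.

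The summed ID level was 110.0 ± 17.8 RPKM over the 3 controls and 180.6 ± 59.8 RPKM over the 3 knockdown samples (mean ± SD), and the ranges overlapped. ID1 made up 67.5% to 74.3% of the sum in shRNA-NC and 76.3% to 82.4% in shRNA-UBC9. The ratio of ID1 to ID3 was 2.09 to 2.94 in shRNA-NC and 3.25 to 4.78 in shRNA-UBC9, without overlap, and was highest in shRNA-UBC9 replicate 1, the sample with the lowest levels of ID1, ID2 and ID3 in its group. Whether ID1 and ID3 responded differently was not tested.

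For BMP2, BMP6 and ID1 the lowest knockdown sample lay above the highest control, and for BMPR1A and SMAD6 the highest knockdown sample lay below the lowest control. Among all tested genes, 25.7% were separated upward and 25.4% downward. BMP2, BMP6 and SMAD6 reached 0.5 RPKM only in the group where they were higher, so passing the filter already fixed their separation. The count of separated genes is therefore not evidence about the list.

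Replicate 1 of shRNA-UBC9 stood apart from the other samples of its group for several of these genes. On the log2(RPKM + 0.1) scale its distance from the group mean was -0.85 for ID3, -0.57 for ID1, -0.44 for BMP6 and 0.22 for BMPR2. In shRNA-NC the largest deviation was that of SMAD6 in replicate 2, at 0.70. For BMPR1A no sample deviated by more than 0.03. Over all tested genes, the correlation of log2(RPKM + 0.1) of shRNA-UBC9 replicate 1 with the other samples of its group was 0.9827 and 0.9785, against 0.9881 between replicates 2 and 3. In shRNA-NC, replicate 2 was the least like the others, at 0.9823 and 0.9847 against 0.9904, a description across genes that are not independent. Without shRNA-UBC9 replicate 1, 6 of the 8 tested genes passed, ID3 being the addition. Without shRNA-UBC9 replicate 3, 3 passed, namely BMP2, BMP6 and BMPR1A.

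**Figure D3:**
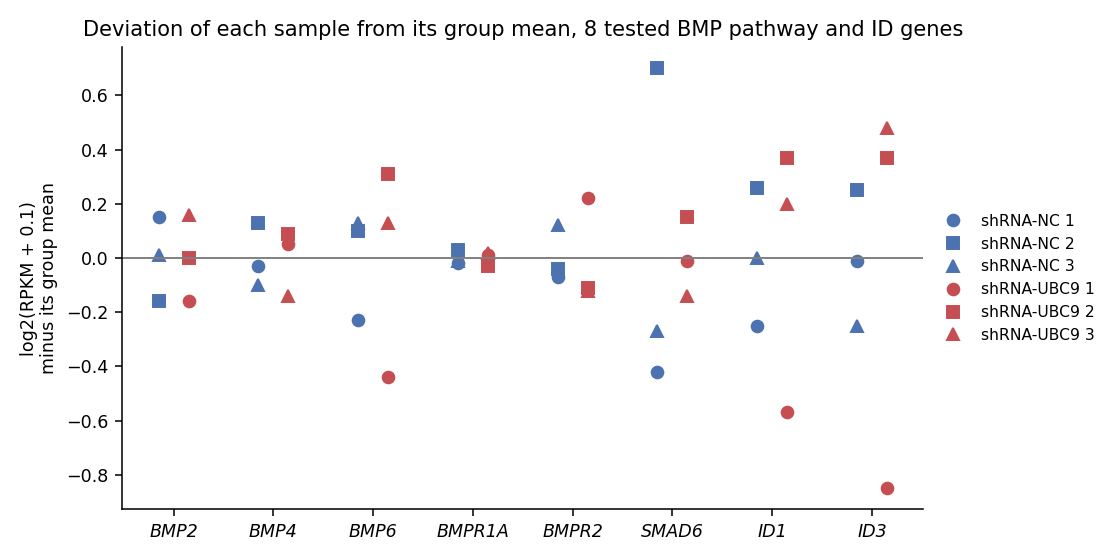
Deviation of each sample from the mean of its own group (vertical axis, log2(RPKM + 0.1)) for the 8 tested genes, with shRNA-NC in blue and shRNA-UBC9 in red and a symbol per replicate. The red circles of ID1 and ID3, at -0.57 and -0.85, mark shRNA-UBC9 replicate 1, and the blue square of SMAD6 at 0.70 marks shRNA-NC replicate 2.

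Ordered by mean RPKM, the shRNA-NC samples had ID1 (78.1), ID3 (31.5), BMPR2 (7.59), BMPR1A (4.79), BMP4 (1.84), SMAD6 (0.865), ID2 (0.377), BMP6 (0.345), BMP2 (0.0573) and ID4 (0). The only neighbours in this order whose ranges overlapped were ID2 and BMP6. In shRNA-UBC9 the first 4 places were the same, with 142, 37.6, 7.50 and 3.22 RPKM, followed by BMP2 (2.44), BMP4 (2.20), BMP6 (1.09), ID2 (0.598), SMAD6 (0.315) and ID4 (0). There BMP2 and BMP4, and BMP6 and ID2, overlapped. The gene lengths behind these RPKM values ran from 1233 bases for ID1 to 11900 bases for BMPR2, as read back from the values, and levels were compared between genes only on this per-length scale. The positions given are those of RefSeq on GRCh38.p14.

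The other genes of the pathway were taken from a list of 55 genes without the 10 above. Of these, 27 were expressed highly enough to be tested, 7 rose, 3 fell and 17 did not pass. The median log2 fold change over the 27 was 0.117, against 0.00482 over all tested genes, and 7 of 27 and 3 of 27 stand beside the 18.8% and 18.0% of all tested genes that rose and fell. None of the 11 further ligands reached the filter.

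Among the receptors and co-receptors, 3 of 6 tested genes rose, beside 18.8% of all tested genes. This group and those described below are small, and their counts are not evidence about a group. ACVR1, a type I receptor for BMPs, had 6.23, 6.20 and 6.55 RPKM in shRNA-NC and 9.56, 9.08 and 9.59 RPKM in shRNA-UBC9. The groups were well separated, and the log2 fold change was 0.57 (standard error 0.081, adjusted p = 0.00141, limma), of about the size of the fall of BMPR1A. BMPR1B, a type I receptor closely related to BMPR1A, had 0.462 ± 0.124 and 1.03 ± 0.389 RPKM (mean ± SD over 3 samples per group) with overlapping ranges and a log2 fold change of 0.97 (adjusted p = 0.0392). RGMB, a BMP co-receptor, rose from 9.35 ± 1.80 to 16.6 ± 3.41 RPKM (mean ± SD over 3 samples per group), or 0.82 as a log2 fold change (adjusted p = 0.0103). BMPR1B did not pass when shRNA-NC replicate 2 (adjusted p = 0.108) or 3 (0.0976) or shRNA-UBC9 replicate 2 (0.124) or 3 (0.111) was left out.

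Among the transducers and their brakes, 1 of 7 tested genes rose and 1 fell, beside 18.8% and 18.0% of all tested genes. SMAD5, which carries the BMP signal, fell from 10.3 ± 0.285 to 7.23 ± 0.366 RPKM (mean ± SD over 3 samples per group), or -0.50 as a log2 fold change (adjusted p = 0.00265, limma). SMURF2, a ubiquitin ligase acting on SMADs and their receptors, rose from 24.9 ± 0.258 to 33.2 ± 1.17 RPKM (mean ± SD over 3 samples per group), or 0.41 as a log2 fold change (adjusted p = 0.00411). SMAD1, SMAD4, SMAD7, SMAD9 and SMURF1 did not pass.

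Among the extracellular antagonists and modulators, 1 of 8 tested genes rose and 1 fell, beside 18.8% and 18.0% of all tested genes. FST, or follistatin, which binds activins and several BMPs, had 24.3, 24.9 and 21.8 RPKM in shRNA-NC and 35.2, 80.8 and 57.2 RPKM in shRNA-UBC9. As with ID1, replicate 1 was the lowest of the shRNA-UBC9 samples, here above all controls. The log2 fold change was 1.21 (standard error 0.255, adjusted p = 0.00774, limma). CRIM1, a membrane protein that binds BMPs, fell from 69.9 ± 2.23 to 51.1 ± 10.6 RPKM (mean ± SD over 3 samples per group), or -0.47 as a log2 fold change (adjusted p = 0.032), and did not pass without any 1 of the 3 shRNA-NC samples or without shRNA-UBC9 replicate 2 (adjusted p from 0.0705 to 0.0937). The BMP antagonist NOG did not pass.

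Among the other target genes, 2 of 3 tested genes rose, beside 18.8% of all tested genes. HEY1, a transcriptional repressor also induced by Notch, rose from 0.321 ± 0.126 to 0.981 ± 0.197 RPKM (mean ± SD over 3 samples per group), or 1.40 as a log2 fold change (adjusted p = 0.00653, limma), and it reached the filter only in shRNA-UBC9. MSX1, a homeobox gene, rose from 4.82 ± 0.702 to 7.26 ± 1.17 RPKM (mean ± SD over 3 samples per group), or 0.58 as a log2 fold change (adjusted p = 0.0191). Without shRNA-NC replicate 3 or shRNA-UBC9 replicate 2 MSX1 did not pass (adjusted p = 0.0701 and 0.0654). Of the E-protein partners of the ID proteins, TCF12 fell and TCF3 and TCF4 did not pass. TCF12 had 11.2, 11.1 and 12.2 RPKM in shRNA-NC and 5.15, 5.87 and 6.30 RPKM in shRNA-UBC9. Its ratio of means was 0.502 and its log2 fold change was -0.99 (standard error 0.1, adjusted p = 0.000315, limma).

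**Figure D4:**
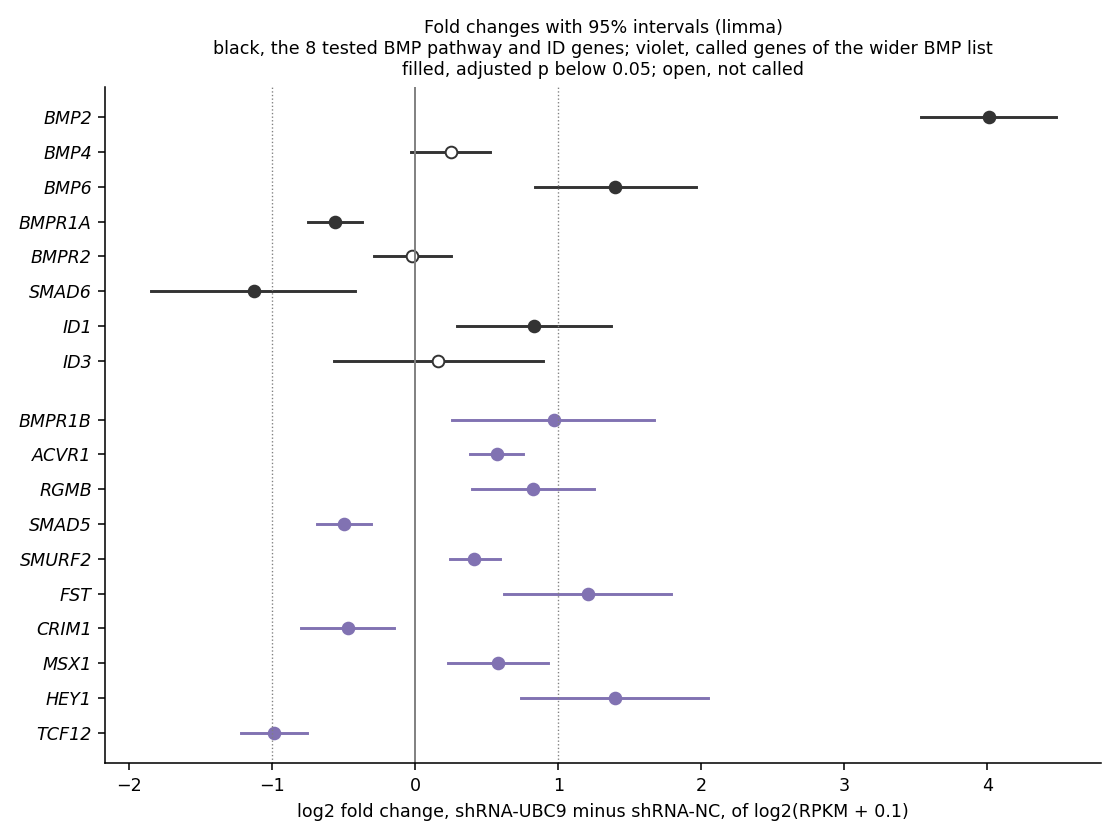
Log2 fold change (horizontal axis, shRNA-UBC9 minus shRNA-NC, log2(RPKM + 0.1)) with its 95% interval for the 8 tested genes (black) and the 10 genes of the wider BMP list that passed the test (violet). Filled points passed at an adjusted p-value below 0.05, open points did not, and dotted lines mark -1 and 1. BMP2, at 4.01, lies far to the right of all others, and the genes that fell, SMAD6, TCF12, BMPR1A, SMAD5 and CRIM1, lie to the left of 0.

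The genes whose log2(RPKM + 0.1) followed each of the 5 changed genes most closely over the 6 samples were listed as a description. The 6 samples form 2 groups that differ in many genes, so a high Pearson correlation is easily reached and no p-value is given. For BMP2 they were CDC42SE1 (r = 0.9994), UCA1_1, as the files name it (0.9984), and ATP6V1F (0.9981). For BMP6 they were SMIM15 (0.9985), RANBP9 (0.995) and GTF2E2 (0.9948). For BMPR1A they were SOCS2 (0.9989), ZFHX4-AS1 (0.9989) and SERTAD4 (0.9988), each with a lower level in shRNA-UBC9. For SMAD6 they were NEMP1 (0.9977), CTPS2 (0.9935) and CCNYL1 (0.9932). For ID1 they were UBE2D4 (0.9936), AIFM1 (0.9912) and MRPS5 (0.9892), none of which passed the test of the groups. RANBP9 (adjusted p = 0.0756, limma) and CTPS2 (adjusted p = 0.083, limma) did not pass it either.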

How the data were processed

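The polyA RNA of 6 T24 samples (3 shRNA-NC, 3 shRNA-UBC9) was sequenced. After adaptor removal, the authors aligned to GRCh38 (hg38 in the labels) using the CLC Biomedical Genomics Workbench with its defaults. Each deposited table holds 58174 genes in RPKM. The annotation release and the handling of strand and of reads with several places are not given in the sources used here, so genes with close copies or antisense partners are uncertain. RPKM is not corrected for RNA composition.

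Groups were taken from the sample titles. Values were taken to log2(RPKM + 0.1) and the groups were contrasted by lmFit and eBayes with an intensity trend (limma 3.58.1, R 4.3.3), with Benjamini-Hochberg adjustment over the 12428 genes with at least 0.5 RPKM in at least 3 samples. Intervals cover 95%. The 10 genes, the wider list and the marker lists were chosen with earlier results of these data known. The genes named with full values by rule are the 10 genes, genes of the wider list that passed, and the 3 genes most correlated with each changed gene. Marker genes, some genes of the wider list that did not pass and those of the closing observations were named after their values were seen. The level of the targeted gene is not reported here.

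Whole reads and gene lengths were read back from the RPKM steps with a tolerance of 0.02 reads, which succeeded for 100% of tested genes, and were used in a limma-voom fit chosen after seeing the data. The reads of all genes made up 91.88% to 92.91% of the mapped reads of a sample. A search for values repeated between libraries found 0. The scripts were tested on simulated data. Alternatives were other pseudocounts, filters and thresholds, quantile normalization, median centring, no trend, a replicate block and leaving out each sample. Tables and figures used Python 3.11.15, numpy 2.4.6, pandas 2.3.3, scipy 1.17.1 and matplotlib 3.10.9.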

Additional observations from a re-analysis of the deposited data

How the results depend on the processing

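Of the 10 genes, 5 passed the test. The number was 3 when every detected gene was tested, 2 when at least 1 RPKM was required in all 6 samples, which left BMPR1A, BMPR2, BMP4, ID1 and ID3, and 3 with a |log2 fold change| > 1 added, at an adjusted or an unadjusted p-value. It ranged from 3 to 6 with a sample left out. The ID1 log2 fold change of 0.83 and the SMAD6 value of -1.13 lost their calls when every detected gene was tested. With a sample left out, ID1 ranged from 0.64 to 1.11, SMAD6 from -1.34 to -0.78, ID3 from -0.08 to 0.58 and BMPR2 from -0.14 to 0.04. The signs of ID3 and BMPR2 turned only there. BMP2, BMP6 and BMPR1A passed in every fit in which they were tested. For the wider list, 10 genes passed, and 2 did with the fold cutoff added, at an adjusted or an unadjusted p-value. Over all tested genes 4576 passed, 981 with the fold cutoff added, 1003 with it at an unadjusted p-value, and 3034 to 4183 with a sample left out, the lowest without shRNA-NC replicate 3. The causes were not tested.

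With the replicate number as a block, 3374 genes passed, and the 5 changed genes of the list passed with the same log2 fold changes, from 4.01 for BMP2 to -1.13 for SMAD6. BMPR1B and CRIM1 lost their calls under this replicate block (adjusted p = 0.0828 and 0.0549). They were also lost when every detected gene was tested (0.0952 and 0.0748), and BMPR1B was lost under quantile normalization (0.0851). The labels do not say that like-numbered samples share a culture or day, so the numbers were not taken as pairs. Deviations from the group means had a mean r of -0.155 (-0.367 to 0.073) between like-numbered samples. For different numbers it was 0.078 (-0.318 to 0.526). Deviations sum to 0 within each group, so these few correlations cannot decide whether the samples were paired. Median centring and quantile normalization changed no call of the 8 tested genes. The limma-voom fit on the reads, chosen after seeing the data, changed no call of the 8 genes. Depth limits BMP2, ID2 and ID4 most, with 20 reads for BMP2 and 83 for ID2 over the shRNA-NC samples and none for ID4.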

Other observations

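Some genes of the wider BMP list lay below the filter and were tested only by limma-voom on the reads. By that test 8 of 35 genes of the list rose and 7 fell, beside 17.8% and 16.3% of all genes. The genes below the filter are named after their values had been seen. ATOH8, a transcription factor induced by BMP signals in the liver and in endothelium, had 22, 28 and 19 reads in the shRNA-NC samples and 2, 2 and 1 reads after knockdown. The log2 fold change was -3.47 (adjusted p = 0.000655), opposite in sign to that of ID1, HEY1 and MSX1. CHRDL1, a secreted BMP antagonist, had 32, 119 and 39 reads in shRNA-NC and 24, 3 and 4 reads after knockdown. Its log2 fold change was -2.89 (adjusted p = 0.0208, limma-voom). For this gene replicate 1 of shRNA-UBC9 was the knockdown sample nearest to the controls. Over all tested genes, that sample had the lowest correlation of its group with each shRNA-NC sample (0.9114 to 0.9212). GDF7, a ligand, had 0.225 ± 0.0597 and 0.101 ± 0.0407 RPKM (mean ± SD over 3 samples per group), or -1.17 as a log2 fold change (adjusted p = 0.0268). ACVRL1, a type I receptor of endothelium, had 5, 0 and 1 reads in shRNA-NC and 11, 33 and 22 reads after knockdown, for a log2 fold change of 3.65 (adjusted p = 0.0117). ATOH8, CHRDL1 and ACVRL1 rest on few reads in at least 1 group, and GDF7 on 217 reads over shRNA-NC and 100 over shRNA-UBC9. CDH5, an endothelial marker, had 2.58 to 3.15 RPKM in shRNA-NC and 0.242 to 1.02 RPKM in shRNA-UBC9. This fall was in the direction of ATOH8, CHRDL1 and GDF7 and opposite to ACVRL1. The other endothelial markers, PECAM1, VWF and KDR, had at most 0.0707 RPKM in any sample, with overlapping groups. CDH5 thus does not stand for its list, and any part of endothelial cells in these values was not tested.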
